A study of Oryctolagus cuniculus with 8 samples.

Results

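The retinas of rabbits fed lard, cholesterol and sucrose together (HFSD) were compared with those of rabbits on standard chow (ND). The comparison takes 4 of the 8 libraries of the series, 2 retinas a diet, as the labels give them, and describes the protein-coding genes outside retinol metabolism and the complement system. All rabbits were wild-type male Chinchilla rabbits about 10 months old at the end of 6 months of feeding. ND retinas came from standard chow alone, and the HFSD held 35% sucrose beside 0.5% cholesterol and 10% lard. The other retinas came from a high-fat diet (HFD; 0.5% cholesterol, 10% lard) and a high-sucrose diet (HSD; 40% sucrose), and are given beside HFSD where they bear on it. The labels do not say whether the 2 retinas of a diet came from separate rabbits, so that a p-value measures the spread between these retinas, which may in part be technical. The deposited values are FPKM, the fragments of a gene scaled for its length and for the depth of the library.

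The retina turns light into nerve signals. Rods and cones pass their response to bipolar cells and these to ganglion cells, whose axons leave as the optic nerve, while horizontal and amacrine cells act sideways. Müller glia span the tissue and recycle transmitter and visual pigment intermediates, and the retinal pigment epithelium (RPE) behind the photoreceptors supplies them across the outer blood-retina barrier. In the rabbit, the myelinated axons, the astrocytes and the retinal vessels lie together in 2 bands beside the optic disc. SAG, the arrestin of rods, stood at 3153 and 3279 FPKM in ND and 3296 and 2826 FPKM in HFSD, and the photoreceptor factor CRX at 538 and 631 against 554 and 484 FPKM, so that the libraries carried the mark of retina. RNA of whole tissue cannot tell fewer cells of a type from less RNA per cell.

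ND replicate 1 was far above ND replicate 2 in many genes of astrocytes, myelin and vessels, where the HFD retinas lay nearer to it. Few genes passed the test. With limma and Benjamini-Hochberg adjustment over 12204 genes, 2 genes had an adjusted p under 0.05, or 0.0164%, 1 of them higher and 1 lower in HFSD. An unadjusted p under 0.05 was found for 985 genes, where 610 would be met by chance. Of these, 452 were higher in HFSD (3.7% of genes tested) and 533 lower (4.37%). Both HFSD retinas lay above both ND retinas in 21.6% of genes and below both in 20.6%. The median log2 fold change of all genes tested was -0.004, with lower means in HFSD for 50.8% of them and higher means for 49.2%. The fold rule of the study divides diet by control FPKM, each plus 1, and keeps folds under 0.65 or over about the inverse of that limit. Group means were divided here, since the study does not say how its retinas were combined. On this rule 198 of 19293 genes (1.03%) were higher and 463 (2.4%) lower. The surplus of lower genes rested on 1 library. Without ND replicate 1 the rule kept 694 higher and 506 lower genes, so that the share of lower genes went from 70.0% to 42.2%. Of 49 gene lists, 42 had a median and 44 a count of members at an unadjusted p under 0.05 that turned sign, went from or to 0 or moved by over 1.5 times with 1 of the 4 retinas left out.

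**Figure D1:**
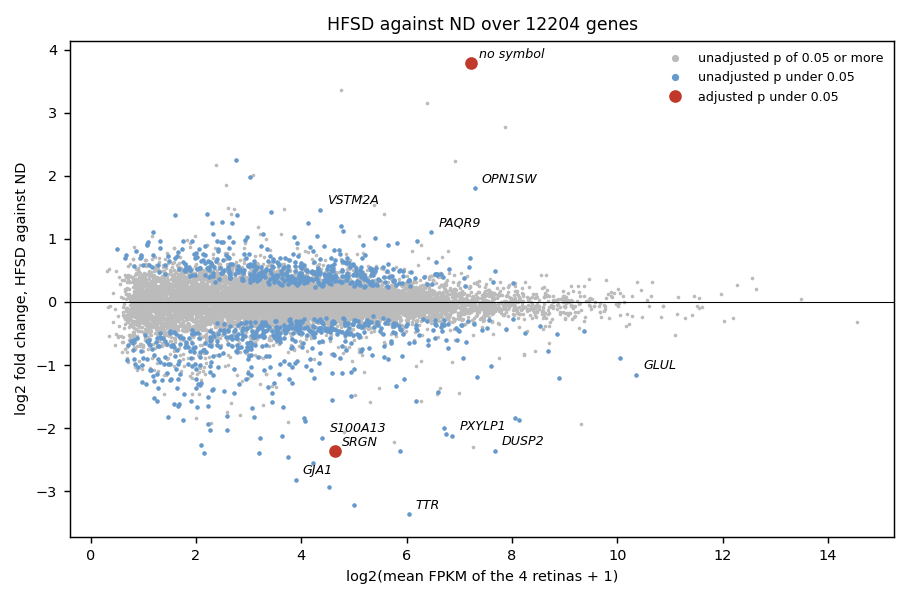
Log2 fold change of HFSD against ND (y axis) against the log2 of the mean FPKM plus 1 over the 4 retinas (x axis), 1 point a gene for 12204 genes. The 2 red points are the genes with an adjusted p under 0.05, SRGN at -2.36 and a gene without a symbol at 3.78, and blue points have an unadjusted p under 0.05.

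SRGN, which encodes serglycin, a proteoglycan of secretory granules in blood and immune cells, fell in HFSD. It stood at 38.8 and 42.3 FPKM in ND and at 6.00 and 8.29 FPKM in HFSD, which rests on 377 and 372 fragments against 68 and 65. The groups lay far apart, with the ND mean 5.67-fold above the HFSD mean. The log2 fold change was -2.36 (standard error 0.161, adjusted p=0.00604, limma with Benjamini-Hochberg adjustment). SRGN was at 10.5 and 12.6 FPKM in HSD and at 59.3 and 62.4 FPKM in HFD, so that the HFD retinas lay above ND and the HFSD retinas below. The other gene, which has no symbol in the table, rose from 23.4 and 15.8 FPKM to 259 and 298 FPKM (log2 fold change 3.78, standard error 0.218, adjusted p=0.00358, limma with Benjamini-Hochberg adjustment). It was as high in the other diets, at 350 and 251 FPKM in HFD and 256 and 240 FPKM in HSD. Both calls were lost when limma was fitted to the 4 libraries of ND and HFSD alone, where the adjusted p (Benjamini-Hochberg) was 0.147 for SRGN and 0.110 for the gene without a symbol, and 0 genes were called (967 at an unadjusted p under 0.05).

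Several genes came close to the threshold without passing it. S100A13, a calcium-binding protein that helps to export growth factors, was at 28.4 and 38.7 FPKM in ND and 6.64 and 6.74 FPKM in HFSD, a log2 fold change of -2.15 (adjusted p=0.0517, limma with Benjamini-Hochberg adjustment). PXYLP1, a phosphatase that acts on the linker sugars of proteoglycans, was at 140 and 240.5 FPKM in ND and 39.4 and 43.8 FPKM in HFSD (-2.12, adjusted p=0.0703, limma with Benjamini-Hochberg adjustment). OPN1SW, the opsin of short-wavelength cones, went the other way, at 69.1 and 67.6 FPKM in ND and 276.5 and 209 FPKM in HFSD (1.80, adjusted p=0.0703, again limma with Benjamini-Hochberg adjustment). The HSD retinas were at 2.70 and 3.84 FPKM for S100A13, below those of HFSD, and beside them for PXYLP1, at 38.1 and 43.0 FPKM, and OPN1SW, at 255 and 290 FPKM. The HFD retinas of PXYLP1, at 196 and 214.5 FPKM, lay within the ND range. Over 13 other settings the adjusted p of limma (Benjamini-Hochberg) ran from 0.035 to 0.278 for S100A13, from 0.00855 to 0.345 for PXYLP1 and from 0.0423 to 0.294 for OPN1SW, and 4, 4 and 2 of the settings called the gene. Without ND replicate 1 it was 0.0396 for S100A13 and 0.00855 for PXYLP1, and without HFSD replicate 1 it was 0.231 and 0.327. A group with a retina left out holds 1 retina, which the fit assumes to vary like the other groups.

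**Figure D2:**
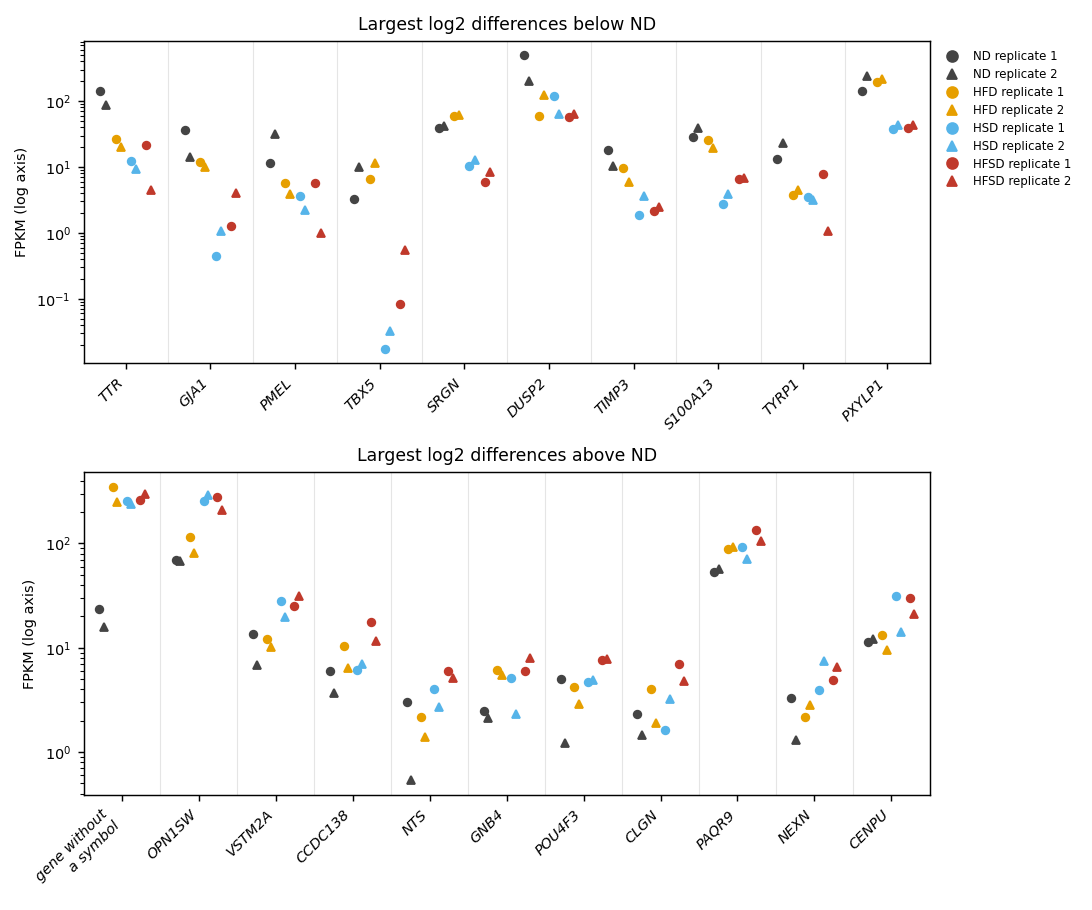
FPKM of each of the 8 retinas (log axis) for the 10 genes with the largest log2 differences below ND (upper panel) and, beside the gene without a symbol, the 10 above ND (lower panel), among genes with an unadjusted p under 0.05 whose retinas did not overlap and outside retinol and complement genes. The SRGN retinas of HFSD lie at 6.00 and 8.29 FPKM, far below 38.8 and 42.3 FPKM in ND, and the OPN1SW retinas at 276.5 and 209 FPKM lie above 69.1 and 67.6 FPKM.

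Genes of the RPE stood lower in HFSD. Of 17 markers tested, 13 were lower at an unadjusted p under 0.05 (4.37% of all genes tested) and 0 were higher. The median log2 fold change was -1.65 (-0.004 over all genes tested). None had an adjusted p under 0.05, and RDH5, RPE65 and LRAT of retinol metabolism are among the 13. TTR, the carrier of thyroid hormone and retinol that the RPE secretes, was at 144 and 88.6 FPKM in ND and 21.4 and 4.52 FPKM in HFSD (-3.36, adjusted p=0.177, limma with Benjamini-Hochberg adjustment, in a range of 0.0208 without HFSD replicate 1 to 0.438 with the ND and HFSD libraries alone). MFRP, a membrane protein whose loss leaves the eye too short, was at 10.1 and 13.4 FPKM against 3.04 and 2.85 FPKM, a log2 difference of -1.68. C1QTNF5, its secreted partner, was at 26.2 and 24.7 FPKM in ND and 5.88 and 6.49 FPKM in HFSD. STRA6, the receptor that takes up vitamin A, was at 3.97 and 3.57 FPKM in ND and 0.864 and 0.237 FPKM in HFSD. The HFSD retinas of these genes lay below both ND retinas. OTX2 and MITF, transcription factors on the list, did not share this. MITF was at 4.11 and 2.29 against 3.69 and 3.77 FPKM, and OTX2 at 81.4 and 104 against 93.2 and 92.6 FPKM. OTX2 is also on the list of bipolar cell genes, so that its level cannot be read as that of the RPE alone.

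The other diets stood in part where HFSD did. TTR was at 26.9 and 20 FPKM in HFD and 12.4 and 9.39 FPKM in HSD, and the median of the RPE list was -0.77 in HFD and -1.47 in HSD, all against the same 2 ND retinas. The summed level of all 21 entries of the list, tested or not, was 746 and 917 FPKM for ND and 374 and 320 FPKM for HFSD. It was 603 and 588 FPKM for HFD, and 420 and 387 FPKM for HSD. RLBP1, also a Müller glia marker, gave 150 and 305 FPKM of the ND sums and 95.0 and 92.6 FPKM of the HFSD sums. Left out in turn, each of the 4 retinas kept the median between -1.71 and -1.35, with 11 to 13 genes lower at an unadjusted p under 0.05. Of 9 melanin genes tested, which pigmented cells use, 4 were lower and 0 higher at an unadjusted p under 0.05, with a median of -0.84. Of these 4, PMEL and TYR were already counted among the lower RPE markers. PMEL, the fibril protein of the pigment granule, was at 11.3 and 31.9 FPKM in ND and 5.73 and 0.983 FPKM in HFSD, and TYRP1, an enzyme of pigment synthesis, at 13.4 and 23.2 against 7.86 and 1.06 FPKM. HFSD replicate 2 was the lowest of the 8 retinas for TTR, PMEL and TYRP1. The median of the melanin list was -0.013 without ND replicate 1 and ran from -1.02 to -0.45 over settings that kept every retina. Whether the retinas carried different amounts of RPE was not tested.

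The blood-retina barrier lies at the RPE and the vessels. Of 22 barrier genes tested, 12 were lower, all of them carriers, and 1 higher at an unadjusted p under 0.05, with a median of -0.88. Of the 22, 16 lay below both ND retinas. Among all genes tested, 4.37% were lower at that limit and 20.6% lay below both ND retinas. SLC13A3, a carrier of dicarboxylates, was at 6.86 and 6.05 FPKM in ND and 1.04 and 0.860 FPKM in HFSD (-1.93, adjusted p=0.103, limma with Benjamini-Hochberg adjustment). The organic anion carrier SLCO1A2 was at 4.07 and 3.54 FPKM against 0.796 and 0.364 FPKM. SLC39A12, a zinc importer, was at 2.76 and 2.38 FPKM in ND and 0.315 and 0.107 FPKM in HFSD, and SLC6A20, a proline carrier, at 2.08 and 1.80 against 0.298 and 0.107 FPKM. SLC2A1, the glucose carrier that feeds the retina, was less far from ND, at 246 and 297 FPKM against 193 and 211 FPKM (-0.42). CAV1, the coat protein of caveolae, was the gene higher at an unadjusted p under 0.05, at 39.3 and 44.1 FPKM in ND and 54.8 and 49.2 FPKM in HFSD. The list's median was -0.27 in HFD and -0.85 in HSD, and it ran from -0.92 to -0.63, with 8 to 11 genes lower, with each retina left out. It was -1.36 with a pseudocount of 0.1 and -0.48 with a filter of 5 FPKM.

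Müller glia markers split. Of 19 tested, 8 were lower and 1 higher at an unadjusted p under 0.05, with a median of -0.41, and RDH10 of retinol metabolism is among the 8. With each retina left out 5 to 8 were lower. GLUL, glutamine synthetase, by which these cells clear glutamate and ammonia, was at 1489 and 2127 FPKM in ND and 722 and 890 FPKM in HFSD (-1.15, standard error 0.221, adjusted p=0.222, limma with Benjamini-Hochberg adjustment). RLBP1, which binds retinaldehyde in Müller glia and RPE, was at 150 and 305 FPKM against 95.0 and 92.6 FPKM. CA14, a membrane-bound carbonic anhydrase, was at 111 and 163 FPKM in ND and 82.7 and 78.4 FPKM in HFSD. For these 3 genes the HFSD retinas lay below both ND retinas. SLC1A3, the glutamate carrier of the same cells, was at 180 and 192 FPKM in ND and 190 and 185 FPKM in HFSD, and the potassium channel KCNJ10 at 40.0 and 49.7 against 46.9 and 39.4 FPKM, so that neither differed beyond the spread of its retinas. The transcription factor SOX9 was level too, at 18.8 and 21.0 FPKM in ND and 20.2 and 19.4 FPKM in HFSD. GLUL was at 1685 and 1551 FPKM in HFD and 754 and 883 FPKM in HSD. Among 15 genes of nitrogen metabolism and carbonic anhydrases, 4 were lower and 2 higher at an unadjusted p under 0.05, with a median of 0.019 that ran from -0.16 without ND replicate 2 to 0.13 without ND replicate 1. CA12, a surface carbonic anhydrase, was at 4.01 and 3.95 FPKM in ND and 0.984 and 0.671 FPKM in HFSD, while CA10, a relative without the enzyme's activity, was at 21.8 and 18.4 against 26.5 and 26.8 FPKM.

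**Figure D3:**
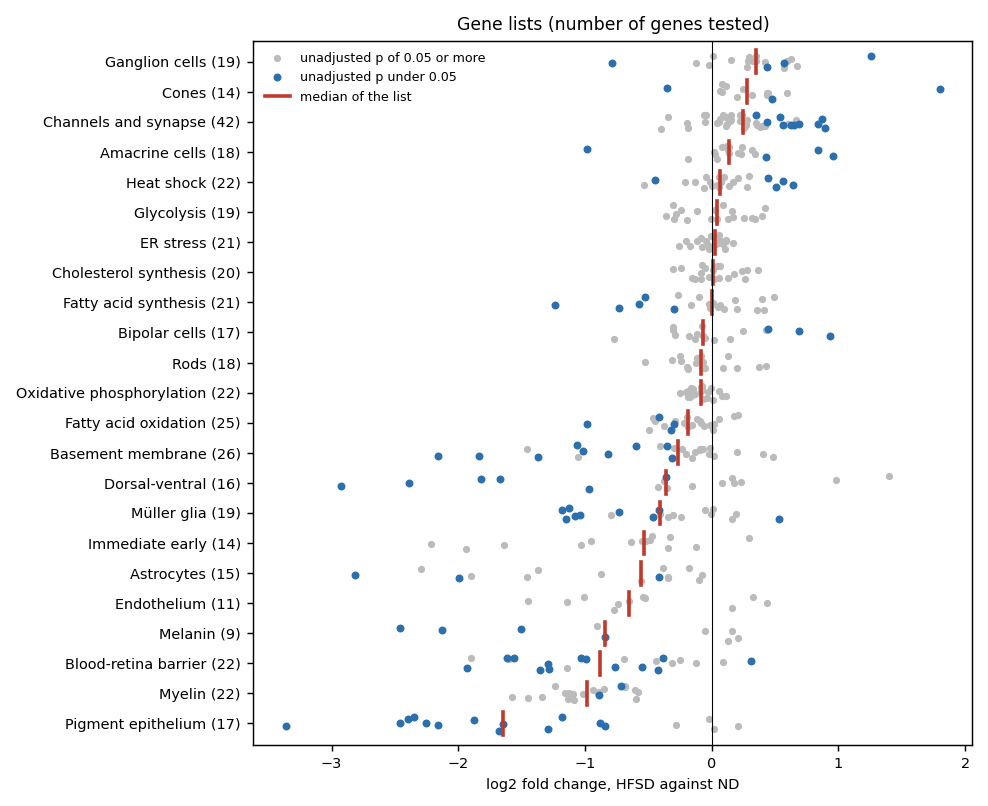
Log2 fold change of HFSD against ND (x axis) for the members of 23 gene lists (y axis, number of genes tested in brackets), with the median of each list in red and members with an unadjusted p under 0.05 in blue. Among the lists drawn, that of the RPE has the lowest median at -1.65, and those of ganglion cells, cones and channels have the highest, at 0.35, 0.28 and 0.25.

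Astrocyte, myelin and vessel genes differed widely between retinas of 1 diet. All 22 myelin genes tested had lower means in HFSD (50.8% of all genes tested), with a median of -0.98, but 2 did so at an unadjusted p under 0.05. MBP, a main myelin protein, was at 252 and 6.54 FPKM in ND and 4.02 and 41.9 FPKM in HFSD. GFAP, the filament protein of astrocytes, was at 524 and 12.1 FPKM in ND and 3.05 and 69.5 FPKM in HFSD. VWF, made by endothelium, was at 3.77 and 0.00648 FPKM in ND and listed at 0 and 0.727 FPKM in HFSD. In each of these genes ND replicate 1 held the highest level of the 8 retinas, and the groups overlapped. The median of the myelin list was 0.22 without ND replicate 1 and -2.32 without ND replicate 2, and that of 11 endothelial genes, -0.66 with all retinas, 0.26 and -1.53. At an unadjusted p under 0.05, 21 of the 22 myelin genes were lower without ND replicate 2, and 1 without ND replicate 1. The summed FPKM of the myelin list was 1645 and 2119 in ND and 765 and 872 in HFSD, most of it from TF, the iron carrier transferrin, at 828 and 2014 FPKM in ND and 697.5 and 695 FPKM in HFSD.

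**Figure D4:**
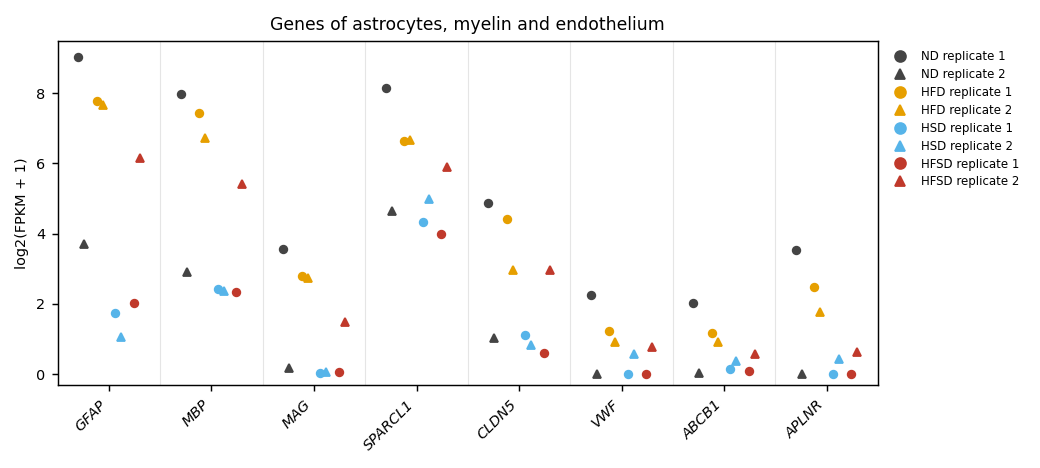
Log2(FPKM + 1) of each of the 8 retinas for genes of astrocytes (GFAP, SPARCL1), myelin (MBP, MAG) and endothelium (CLDN5, VWF, ABCB1, APLNR). ND replicate 1 is the highest retina for all 8 genes, and ND replicate 2 lies with the low retinas.

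Within the astrocyte list, whose 15 tested genes all had lower means in HFSD (median -0.55, 3 at an unadjusted p under 0.05), some genes did separate the diets. GJA1, a gap junction protein, was at 36.0 and 14.1 FPKM in ND and 1.26 and 3.97 FPKM in HFSD (-2.82, adjusted p=0.177, limma with Benjamini-Hochberg adjustment). S100A1, a calcium sensor, was at 122 and 212 FPKM against 34.5 and 45.3 FPKM (-1.99, adjusted p=0.103, limma with Benjamini-Hochberg adjustment, in a range of 0.0317 without ND replicate 1 to 0.44 without HFSD replicate 1). S100A1 was at 27.9 and 26.3 FPKM in HSD and 184 and 144 FPKM in HFD. SPARCL1, which astrocytes secrete, followed GFAP in its spread, at 283 and 24.0 FPKM in ND and 14.9 and 58.1 FPKM in HFSD. Of the 15 astrocyte genes, 9 had lower means without ND replicate 1 (median -0.15), and without ND replicate 2, 8 were lower at an unadjusted p under 0.05 (median -1.32).

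Genes of neuronal signalling leaned the other way. Of 42 genes of ion channels, transmitter receptors and synapses, 10 were higher and 0 lower in HFSD at an unadjusted p under 0.05, 25 lay above both ND retinas, and the median log2 fold change was 0.25. Among all genes tested, 3.7% were higher at an unadjusted p under 0.05 and 21.6% lay above both ND retinas. No member of the list had an adjusted p under 0.05. The list holds 10 subunits of inhibitory receptors, and 7 of them were among the 10 higher genes, a grouping made after the values were seen. GLRA2, a glycine receptor subunit, was at 10.97 and 10.1 FPKM in ND and 17.5 and 16.1 FPKM in HFSD (0.63, adjusted p=0.238, limma with Benjamini-Hochberg adjustment), and GLRA3 at 2.98 and 1.42 against 5.03 and 4.49 FPKM. Of the GABA-A receptor subunits, GABRA2 was at 14.5 and 9.02 against 18.9 and 25.01 FPKM, and GABRA6 at 3.42 and 2.27 against 5.11 and 6.53 FPKM. GRIK1, the kainate receptor of OFF bipolar cells, was at 31.4 and 21.6 FPKM in ND and 40.2 and 45.3 FPKM in HFSD. CAMK2A, a kinase of excitatory synapses, was at 8.41 and 5.73 against 11.7 and 11.2 FPKM. In all of these both HFSD retinas were above both ND retinas. The GABA receptor subunit GABRR2 of bipolar cells was on the other side, at 36.0 and 39.9 FPKM in ND and 30.3 and 29.1 FPKM in HFSD.

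ND replicate 2 was the lower ND retina in 9 of these 10 genes. Without it 6 of the 42 genes were higher and 0 lower at an unadjusted p under 0.05, with a median of 0.12, and without ND replicate 1 there were 17 and 1, with a median of 0.32. The medians were -0.09 in HFD and 0.14 in HSD. GLRA2 was at 10.5 and 12.0 FPKM in HFD and 15.5 and 14.0 FPKM in HSD.

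**Figure D5:**
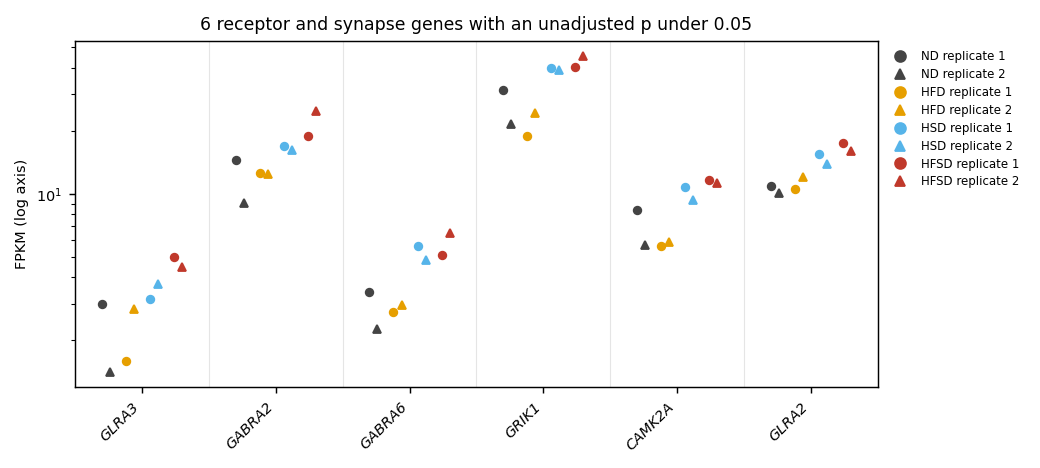
FPKM of each of the 8 retinas (log axis) for the 6 receptor and synapse genes named in the text, all with an unadjusted p under 0.05. Both HFSD retinas lie above both ND retinas in all 6, as for GLRA2 with 17.5 and 16.1 FPKM against 10.97 and 10.1 FPKM.

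The photoreceptor genes were listed by cell type, beside all genes tested, of which 49.2% had higher means in HFSD. Of 14 cone genes tested, 13 had higher means in HFSD, with a median of 0.28 that stayed between 0.21 and 0.33 with each retina left out, and 2 were higher and 1 lower at an unadjusted p under 0.05 (5 and 0 without ND replicate 1). Beside OPN1SW, PDE6C, the catalytic subunit of the cone phosphodiesterase, was at 30.5 and 26.8 FPKM in ND and 38.7 and 41.5 FPKM in HFSD. GNAT2, the cone transducin, was at 89.4 and 67.8 FPKM against 102 and 110 FPKM. KCNV2, a potassium channel subunit of rods and cones, was lower, at 186 and 159 FPKM in ND and 135 and 134 FPKM in HFSD. Of 18 rod genes, 0 were higher and 0 lower at an unadjusted p under 0.05, with a median of -0.088 that ran from -0.25 without ND replicate 1 to 0.018 without ND replicate 2. ROM1, a protein of the outer segment rim, was at 2283 and 2800 FPKM against 2238 and 1373 FPKM (-0.53), and CNGA1, the rod channel, at 676 and 558 against 747 and 845 FPKM (0.37).

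Lists of inner retinal neurons had medians near 0, with larger differences in single genes. Amacrine genes had a median of 0.14 over 18 tested, with 3 higher and 1 lower at an unadjusted p under 0.05 (1 to 3 higher and a median of 0.082 to 0.26 with a retina left out). SLC17A8, the glutamate carrier of a glycinergic amacrine type, was at 6.56 and 5.93 FPKM in ND and 14.4 and 9.85 FPKM in HFSD, while the peptide VIP was at 3.57 and 2.81 FPKM against 0.719 and 1.60 FPKM. The peptide SST was at 0.778 and 0.136 FPKM in ND and 2.07 and 1.47 FPKM in HFSD, from 19 and 3 fragments against 59 and 29. Of 17 bipolar genes, 3 were higher and 0 lower (median -0.069, and 0 higher without ND replicate 2). SCGN, a calcium-binding protein of cone bipolar cells, was at 49.9 and 27.2 FPKM in ND and 78.9 and 64.4 FPKM in HFSD, whereas PCP2, most abundant in rod bipolar cells, was at 364 and 518 against 253 and 254 FPKM. Of 10 horizontal cell genes 1 was higher and 0 lower (median 0.12, from 0.065 to 0.125 with a retina left out). CALB1, a calcium buffer, was at 32.3 and 35.3 FPKM in ND and 47.3 and 48.9 FPKM in HFSD.

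Ganglion cell genes depended on the ND retina. Their median was 0.35 over 19 tested, with 3 higher and 1 lower at an unadjusted p under 0.05, but it was 0.69 without ND replicate 1, where 14 were higher, and -0.030 without ND replicate 2, where 1 was. SLC17A6, the glutamate carrier of ganglion cells, was at 24.8 and 9.21 FPKM in ND and 23.4 and 26.3 FPKM in HFSD, and THY1, a surface protein of these cells, at 197 and 103 against 178 and 180 FPKM. POU4F3, a transcription factor of some ganglion cells, was above both ND retinas, at 4.98 and 1.21 FPKM in ND and 7.61 and 7.78 FPKM in HFSD. SPP1, the secreted protein osteopontin, was below, at 346 and 716 FPKM against 292 and 286 FPKM.

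Some genes that pattern the dorsal retina were lower in HFSD. Of 16 dorsal and ventral genes tested, 6 were lower and 0 higher at an unadjusted p under 0.05, with a median of -0.36, and ALDH1A1 of retinol metabolism is among the 6. The dorsal factor TBX5 was at 3.27 and 9.85 FPKM in ND and 0.0848 and 0.560 FPKM in HFSD, or 232 and 632 fragments against 7 and 32. NR2F2, another dorsal factor, was at 9.30 and 15.5 FPKM against 1.83 and 3.82 FPKM, and the dorsal ligand EFNB2 at 12.3 and 24.2 against 3.26 and 6.76 FPKM. The ventral factor VAX2 was at 20.9 and 39.6 FPKM in ND and 37.6 and 30.8 FPKM in HFSD, with overlapping groups, and ALDH1A3, the ventral enzyme of retinoic acid synthesis, at 6.76 and 0.194 against 8.76 and 5.61 FPKM. The dorsal genes were also low in HSD, with TBX5 at 0.0175 and 0.0320 FPKM (1 and 2 fragments), and were at ND levels in HFD, with TBX5 at 6.61 and 11.7 FPKM. OPN1SW and TBX5 both set the HSD and HFSD retinas apart from those of ND and HFD. The labels used here do not say which region of a retina was taken, and its part in these values was not tested.

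Of 26 genes of basement membrane and extracellular matrix tested, 9 were lower and 0 higher at an unadjusted p under 0.05. Their median was -0.27, and -0.59 with a filter of 5 FPKM, and 5 to 7 genes were lower with a retina left out. TIMP3, an inhibitor of matrix proteases in the membrane under the RPE, was at 18.1 and 10.3 FPKM in ND and 2.15 and 2.46 FPKM in HFSD (-2.16, adjusted p=0.154, limma with Benjamini-Hochberg adjustment). SPARC, which binds collagen, was at 620.5 and 229 FPKM against 84.9 and 129 FPKM, with an adjusted p (limma, Benjamini-Hochberg) of 0.332, in a range of 0.043 without ND replicate 2 to 0.927 without HFSD replicate 1. The protease HTRA1 was at 30.4 and 29.2 FPKM in ND and 15.5 and 17.5 FPKM in HFSD, and COL8A1, a short-chain collagen, at 5.10 and 7.41 against 2.24 and 1.35 FPKM. TIMP3, HTRA1 and COL8A1, at loci that carry risk of macular degeneration in people, were 3 of the 4 genes lower at an unadjusted p under 0.05 among 12 such genes tested, where RDH5 of retinol metabolism was the fourth, 1 was higher and the median was -0.072 (-0.16 to 0.054 with a retina left out).

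Immediate early genes respond within minutes to activity or handling. In HFSD 13 of 14 had lower means (50.8% of all genes tested), with a median of -0.53, and 0 were lower or higher at an unadjusted p under 0.05. Without ND replicate 1, 9 were lower on average (median -0.099), and without ND replicate 2, 3 were lower at an unadjusted p under 0.05 (median -0.88). EGR1 was at 1548 and 468 FPKM in ND and 375 and 131 FPKM in HFSD, and FOSB at 170 and 19.5 against 12.7 and 10.8 FPKM, so that the ND retinas differed from each other more than the lower one did from HFSD. A list of 15 tested genes held the DUSP genes of MAP kinase phosphatases and members of the SPRY, SPRED and ETV families. Of these, 2 were lower and 1 higher at an unadjusted p under 0.05 (median -0.20, from -0.30 to -0.12 with a retina left out). DUSP2 was at 493 and 198 FPKM in ND and 57.6 and 63.0 FPKM in HFSD, and DUSP6 at 33.3 and 55.3 against 18.4 and 11.6 FPKM.

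Lists of fat and sugar handling, the nutrients added by the diet, had medians between -0.19 and 0.044. Of 20 genes of cholesterol synthesis and uptake, 0 were higher and 0 lower at an unadjusted p under 0.05, with a median of 0.012. SQLE, an enzyme of sterol synthesis, was at 17.0 and 11.2 FPKM in ND and 15.8 and 17.2 FPKM in HFSD. Without ND replicate 1, 5 were higher and 0 lower at an unadjusted p under 0.05 (median 0.18), and without ND replicate 2, 18 of the 20 had lower means (median -0.12). Of 19 glycolysis genes, 0 were higher and 0 lower (median 0.044). Of 21 genes of fatty acid synthesis and elongation, 5 were lower and 0 higher (median 0.002), among them ACSL5, which activates long-chain fatty acids, at 2.54 and 2.62 FPKM in ND and 0.708 and 0.349 FPKM in HFSD, and the desaturase FADS2, at 45.3 and 33.6 against 27.5 and 26.1 FPKM. Without ND replicate 1, 3 of these 21 genes were higher and 1 lower, and without HFSD replicate 2 the median was 0.12.

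Of 25 genes of fatty acid oxidation, 20 had lower means, 11 lay below both ND retinas, and 4 were lower and 0 higher at an unadjusted p under 0.05 (median -0.19; 2 lower with any retina left out, and a median of -0.064 without ND replicate 2), such as ACADS, a dehydrogenase of short-chain fatty acids, at 15.0 and 16.5 FPKM against 11.9 and 11.3 FPKM. Among all genes tested, 50.8% had lower means, 20.6% lay below both ND retinas and 4.37% were lower at an unadjusted p under 0.05. Of 17 lipid droplet genes, 2 were lower and 1 higher (median -0.083, from -0.18 to -0.009 with a retina left out). CIDEA, which fuses droplets, was at 5.71 and 4.58 FPKM in ND and 1.32 and 0.592 FPKM in HFSD (-1.67, adjusted p=0.103, limma with Benjamini-Hochberg adjustment), and PNPLA3, a droplet lipase, at 135 and 122 against 79.0 and 89.7 FPKM. PLIN2, a coat protein of droplets, was at 10.99 and 9.47 FPKM in ND and 10.3 and 8.94 FPKM in HFSD and did not differ beyond its spread. Of 17 genes of lipid efflux 12 had lower means and 9 lay below both ND retinas, while 1 was lower and 0 higher at an unadjusted p under 0.05 (median -0.15, from -0.26 without HFSD replicate 1 to -0.069 without ND replicate 2), NPC2, the lysosomal carrier of cholesterol, at 59.0 and 96.2 FPKM against 40.1 and 42.1 FPKM. Of 19 genes of sugar sensing, fructose and polyol metabolism, 2 were lower and 1 higher (median 0.036, from -0.080 to 0.071 with a retina left out). GALM, which interconverts forms of galactose and glucose, was at 41.2 and 55.9 FPKM in ND and 106 and 85.3 FPKM in HFSD, above both ND retinas.

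Lists of cell stress and protein supply were near 0. Of 21 genes of endoplasmic reticulum stress, 0 were higher and 0 lower at an unadjusted p under 0.05 (median 0.022), and the same counts held for 27 proteasome genes (-0.053), 22 nuclear genes of oxidative phosphorylation (-0.088) and 17 ribosomal protein genes (-0.080). Of 22 heat shock genes 4 were higher and 1 lower (median 0.065; 2 to 5 higher with a retina left out). HSPH1, a co-chaperone of HSP70, was at 34.4 and 30.2 FPKM in ND and 45.4 and 47.0 FPKM in HFSD, and HSPA4L, its relative, at 94.3 and 74.2 against 109 and 120.5 FPKM. Of 18 genes of inflammation 1 was higher and 1 lower (median -0.11). The median ran from -0.14 to -0.013 with a retina left out, and from -0.13 to 0.078 over settings that kept every retina. VCAM1, an adhesion molecule, was at 2.997 and 2.65 FPKM in ND and 6.58 and 6.11 FPKM in HFSD, and CSF1, a growth factor of macrophages, at 1.35 and 0.949 against 0.386 and 0.330 FPKM. Of 17 microglia genes 3 were lower and 0 higher (median -0.24), of which C1QB and C1QC belong to the complement system and CSF1R is a growth factor receptor. Without ND replicate 1, 1 was lower (median 0.082), and without ND replicate 2, 8 were (median -0.67).

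Whether lard with cholesterol and sucrose together gave another value than the sum of their separate log2 differences was tested as an interaction over all 8 retinas. With limma and Benjamini-Hochberg adjustment, 1 of 12204 genes (0.00819%) had an adjusted p under 0.05, and 456 had an unadjusted p under 0.05. It was the gene without a symbol described above, which stood at the level of HFSD in each single diet, with an interaction of -3.71 (standard error 0.308, adjusted p=0.0489, limma with Benjamini-Hochberg adjustment). That call was lost in 9 alternatives: a pseudocount of 0.1, no filter on low values, median ratio scaling, no trend, voom, the replicate block, and without ND replicate 2 or either HFSD retina. BAG2, a co-chaperone, was at 37.0 and 36.7 FPKM in ND, 71.3 and 70.1 FPKM in HFD, 75.7 and 72.2 FPKM in HSD and 55.8 and 53.7 FPKM in HFSD, an interaction of -1.35 (adjusted p=0.0879, limma with Benjamini-Hochberg adjustment). The lens and retina crystallin CRYBB2 was at 2.92 and 3.83 FPKM in ND, 6.06 and 8.23 FPKM in HFD, 12.2 and 10.9 FPKM in HSD and 3.85 and 2.19 FPKM in HFSD, an interaction of -2.56 (adjusted p=0.248, limma with Benjamini-Hochberg adjustment). KCNG4, a modifier of potassium channels, was at 9.28 and 8.44 FPKM in ND and 5.11 and 4.50 FPKM in HFSD, with 12.2 and 15.6 FPKM in HFD and 10.4 and 9.04 FPKM in HSD. In BAG2 and CRYBB2 both single diets lay above ND and above HFSD, and in KCNG4 the HFSD retinas alone lay below ND. STRA6, given above, was at 0.493 and 0.688 FPKM in HFD and 0.388 and 0.315 FPKM in HSD, so that each single diet was already near the HFSD level.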

How the data were processed

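RNA of 8 retinas, 2 for each of 4 diets, was sequenced. After a FastQC check and removal of poor 5′ ends, the authors aligned reads with TopHat2 at up to 2 mismatches, dropped those with several locations and deposited FPKM per gene and library. The build and annotation are not given in the sources used here, so no coordinates are given. The table has 25666 genes, 19293 protein-coding, of which 13297 carry a symbol. FPKM steps gave whole fragments for 100% of values above 0 (within 2e-06 of a fragment plus 1e-08 of the value), and between 15223696 and 22293666 fragments a library summed over genes, where 1 fragment on 1 kb is worth 0.0439 to 0.0634 FPKM.

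The 12204 protein-coding genes that reached 1 FPKM in 2 or more libraries entered limma 3.58.1 (R 4.3.3) as log2(FPKM + 1), with the prior variance trended on level, all 8 libraries in 1 model of 4 diets (4 residual and 3.39 prior degrees of freedom), and Benjamini-Hochberg adjustment. Fold changes on this scale understate those of low genes. The interaction was (HFSD - HFD) - (HSD - ND). The study's fold rule used all protein-coding genes. All 3 diets share the ND retinas. The fit was tested on simulated data for HFSD against ND (12068 genes, 200 changed by a log2 of 2), where 181 (90.5%) and 15 unchanged genes were called. The changed genes were drawn from those with many fragments, and the spread was assumed, not taken from these retinas. The share called is therefore not the power of the comparison in these data.

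The members and the 49 gene lists were chosen with earlier results of these data known. The lists share genes, so that their counts are not separate. Examples are SLC6A20 (RPE and barrier), RLBP1 (RPE and Müller glia), TIMP3 (RPE, matrix and macular risk) and NDRG2 (Müller glia and astrocytes). Genes named were those called, the 10 largest differences each way among non-overlapping genes with a symbol and an unadjusted p under 0.05, up to 4 members of each list with the smallest unadjusted p under 0.05, and 5 genes of the interaction. Retinol and complement genes of the study were left out of the largest differences. Other genes were named after their values were seen, and some genes are not reported here. Replicate numbers did not pair the retinas (correlation of deviations in ND and HFSD -0.165). Alternatives covered the pseudocount, filters, scaling, the libraries fitted, voom on fragments, a replicate block and each ND and HFSD retina left out.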

Additional observations from a re-analysis of the deposited data

Results flagged for a closer look

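In the gene without a symbol, the effect of sucrose differed between the diets with and without fat, by -3.71 on the log2 scale (adjusted p=0.0489, limma with Benjamini-Hochberg adjustment over 12204 genes), a call lost in 9 of the alternatives tried.

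In another 12 of the 115 genes named by rule, the 2 retinas of HFSD and the 2 retinas of a single diet moved opposite ways. Adding fat to sucrose took both retinas one way, and adding fat to chow took both the other way, or the same held for sucrose. The share of all genes tested that did so was not counted, so that the 12 cannot be called a surplus. None of the 12 interactions had an adjusted p under 0.05 in limma with Benjamini-Hochberg adjustment. The level with fat was lower beside sucrose and higher beside chow for SRGN (interaction -1.21), KCNG4 (-1.47), the crystallin CRYAB (-0.90), FMOD (-0.93), a matrix proteoglycan, HR (-0.68), a corepressor of nuclear receptors, and GSTP1 (-0.45), a glutathione transferase. The same held with sucrose as well as with fat for BAG2 (-1.35) and CRYBB2 (-2.56). The opposite held for GJA1 (1.95), S100A13 (1.43), TMEM215 (0.52) and the receptor TGFBR1 (0.30), which were higher with fat beside sucrose and lower with fat beside chow. With 2 retinas a diet, no diet was large enough for a check of single outlying retinas.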

How the results depend on the processing

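The 2 genes called in HFSD were shared by every fit of all 4 diets, and the number called was 4 with quantile normalization, with voom on fragments and with a replicate block, and 0 in the fit of the ND and HFSD libraries alone (967 at an unadjusted p under 0.05). With each ND or HFSD retina left out it ran from 2 to 11, with 11 without ND replicate 1 and 10 without ND replicate 2. Crossing the replicate numbers, tried after seeing the data, called 2 genes over 4 diets and 3 over 2 diets, where limma with the replicate block as numbered called 0 (630 at an unadjusted p under 0.05). The interaction called 0 genes with a pseudocount of 0.1, no filter, median ratio scaling, no trend, voom or the replicate block (429 to 678 in limma at an unadjusted p under 0.05), and 0 to 2 with a retina left out. The fold rule kept 2145 genes with a pseudocount of 0.1 and 831 to 1200 with a retina left out. The cause of these shifts was not tested. For HFSD against ND the rule for the largest differences takes genes whose retinas do not overlap, which fixes their direction with a retina left out. Other genes named, such as MBP, GFAP, VWF, SPARCL1, VAX2, THY1 and SQLE, turn direction without 1 of the ND retinas. CRYBB2 in HFSD was at 0.004 without ND replicate 2 and 0.156 without HFSD replicate 2, in a range of -0.448 to 0.156 with a retina left out. Of 49 list medians, 28 kept their sign. With 2 retinas a diet, 1 retina can decide a mean, and an unadjusted p under 0.05 is a description, not a call.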

Other observations

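Some gene lists belong to none of the comparisons above. Of 18 circadian clock genes, 13 had higher means in HFSD, beside 49.2% of all genes tested (median log2 fold change 0.12). Without HFSD replicate 2, 9 of the 18 did (median 0.030). At an unadjusted p under 0.05, 1 was higher, the nuclear receptor RORA. It was at 28.2 and 24.4 FPKM in ND and 33.5 and 38.6 FPKM in HFSD. Of 30 genes of selenium transport and antioxidant defence, 3 were lower and 0 higher (median -0.090; 1 to 4 lower with a retina left out). SELENOP, the plasma carrier of selenium, was at 281.5 and 238 FPKM in ND and 136 and 120 FPKM in HFSD (-1.01, adjusted p=0.103, limma with Benjamini-Hochberg adjustment), and at 140 and 129 FPKM in HSD. Of 15 genes of thyroid hormone action, 4 were lower and 0 higher (median 0.019, and -0.093 to 0.016 with a retina left out), among them the carrier SLCO1C1, at 18.3 and 11.04 FPKM in ND and 3.51 and 7.67 FPKM in HFSD. Of 14 genes of iron handling 1 was higher, the transferrin receptor TFRC, at 52.3 and 43.0 FPKM in ND and 65.5 and 70.1 FPKM in HFSD, and 2 were lower (median -0.11; 0 to 3 lower with a retina left out).

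Among the other lists, at an unadjusted p under 0.05, 4 of 19 angiogenesis genes were lower and 0 higher (median -0.11, but 0.10 without ND replicate 1, and 8 lower without ND replicate 2), 3 of 31 TGF-β and BMP genes lower and 1 higher (-0.063; 0 higher with any retina left out), 2 of 21 insulin and IGF genes lower and 0 higher (-0.049; 0 to 3 lower with a retina left out), 2 of 27 lysosome and autophagy genes lower and 0 higher (-0.083) and 2 of 17 interferon and antigen genes lower and 0 higher (-0.19; 0 to 4 lower with a retina left out). Of 16 cell death genes 1 was lower and 0 higher (0.063), of 15 fibroblast genes 1 lower and 0 higher (-0.26; -0.39 to -0.076 with a retina left out), of 8 mural cell genes 1 lower and 0 higher (-0.58, but -0.094 without ND replicate 1, and 4 lower without ND replicate 2) and of 4 lens genes 1 lower and 0 higher (-0.30, but 0.014 without ND replicate 2). Of 3 blood cell genes 1 was lower, SRGN (median -2.05, but -0.45 without ND replicate 1), and the haemoglobin gene HBB2 was at 81.0 and 7.84 FPKM in ND and 1.15 and 18.6 FPKM in HFSD, with overlapping groups. Of 10 muscle genes tested 0 were lower or higher in HFSD (-0.084). The summed FPKM of all 26 muscle entries, tested or not, was 23.2 and 28.2 in ND and 25.4 and 21.2 in HFSD, beside 24.7 and 840 in HSD.

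The largest differences above ND included genes of varied function. VSTM2A, a secreted protein with an immunoglobulin domain, was at 13.7 and 6.79 FPKM in ND and 25.4 and 31.7 FPKM in HFSD. The peptide NTS was at 3.002 and 0.538 FPKM in ND and 5.96 and 5.08 FPKM in HFSD. PAQR9, a membrane receptor of the progestin family, was at 53.2 and 56.4 FPKM in ND, 89.0 and 91.7 FPKM in HFD, 93.2 and 71.0 FPKM in HSD and 135 and 106 FPKM in HFSD (1.11, adjusted p=0.152, limma with Benjamini-Hochberg adjustment), so that the HFSD retinas were the highest of the 8. GNB4, a G protein subunit, was at 2.46 and 2.11 against 5.93 and 7.91 FPKM, and CLGN, a chaperone of the endoplasmic reticulum, at 2.34 and 1.46 against 7.06 and 4.84 FPKM. CCDC138 was at 5.95 and 3.68 FPKM in ND and 17.7 and 11.6 FPKM in HFSD, NEXN, an actin-binding protein, at 3.30 and 1.31 against 4.87 and 6.57 FPKM, and CENPU, of the centromere, at 11.3 and 12.3 against 30.2 and 21.2 FPKM.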
